A study of Mus musculus with 6 samples.

Results

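Transcript levels were compared by RNA-seq in myotubes of the mouse C3H myoblast line, whose cells fuse into multinucleated muscle cells when serum is reduced, and the genes described here are the nuclear genes for mitochondrial respiration, the mitochondrial ribosome and mitochondrial protein import. At 40 h of differentiation the cells received a control siRNA (siCon, 3 libraries) or an siRNA against the lncRNA H19 (siH19, 3 libraries), and RNA was collected 48 h later. Both groups are the same line in the same medium, and no source used here says whether the 3 libraries of a group came from separate experiments. The deposited table holds 1 level per group, the log2 FPKM (fragments over a kilobase of transcript, relative to all mapped fragments), pooled over the 3 libraries, so the spread between libraries and their depth are unknown and no test was run. Every one of its 3019 features was marked significant by the authors, and features without that mark were not analysed here. The genes were taken by their symbols, namely the Nduf, Sdh, Uqcr, Cox and Atp5 families, the Mrpl and Mrps families, Timm and Tomm, cytochrome c, coenzyme Q synthesis, fusion factors, the factors that copy and transcribe mitochondrial DNA, and the mt- genes. The rule found 13 of the 3019 features, each on a row of its own.

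Mitochondria make ATP by passing electrons along complexes I to IV of the inner membrane and using the resulting proton gradient to drive complex V. A few core subunits are encoded by mitochondrial DNA and made on a dedicated ribosome, while every protein of that ribosome and most respiratory subunits are encoded in the nucleus, made in the cytosol and carried in by the TOM and TIM translocases. Skeletal muscle has many mitochondria and uses muscle forms of several respiratory subunits, which replace the ubiquitous forms as the muscle matures.

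The knockdown was read first. H19 was at 11.20 on the log2 FPKM scale in siCon and at 7.50 in siH19, so that 7.70% of the control level was left. Of the 13 mitochondrial genes, 6 were higher and 7 lower in siH19 (46.2% higher), with a median difference (siH19 minus siCon) of -0.36 on the log2 scale. Over all 3019 listed features 62.8% were higher and the median difference was 0.45. With no listed difference under 0.31 in absolute size and so even a split, the median of the 13 lies at the edge of that empty band and adds nothing to the count of higher and lower genes. By function, the 5 mitochondrial ribosome genes were all lower, the 3 import genes were all higher (Timm22 and Timm17b not so on a scale centred on the listed features), and the 5 respiratory chain genes went both ways. Relative to the median of the listed features, a scale on which every difference drops by 0.45, the genes that were lower necessarily stay so, Cox6a2, Tomm34 and Ndufaf4 were again higher, Timm17b was at 0.00, and Ndufb8 and Timm22 turned to -0.08 and -0.03. In these bulk libraries, fewer cells of a type and less RNA per cell cannot be told apart.

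**Figure D1:**
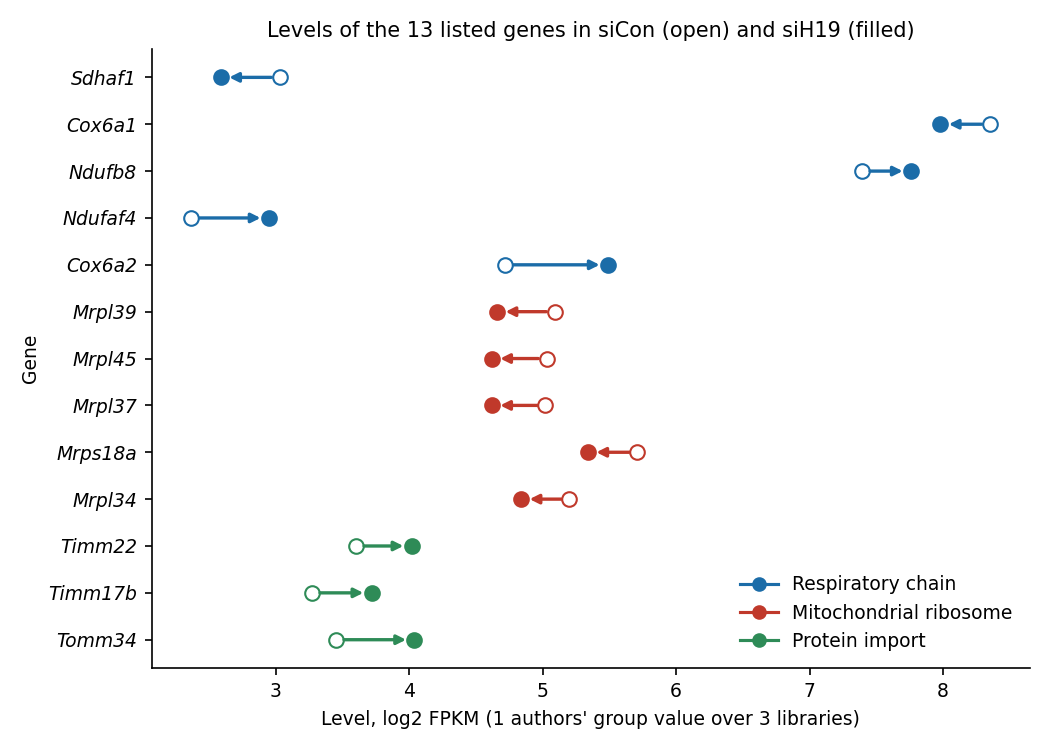
Level of each of the 13 listed mitochondrial genes on the log2 FPKM axis, as 1 value per group pooled over 3 libraries, with siCon as open and siH19 as filled points joined by an arrow. The 5 ribosome genes shift to the left, the 3 import genes to the right (Timm22 and Timm17b only before centring on the listed features), and Cox6a1 and Cox6a2 shift towards each other. No error bars can be drawn for pooled values.

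Most annotated genes of these families are absent from the list. The rule matches 245 protein-coding genes of the GENCODE annotation, of which 13 (5.31%) are listed, against 2423 (11.1%) of all 21924 protein-coding genes. Which of the unlisted genes were expressed is unknown, so these shares do not compare expressed genes. By family, 2 of 46 annotated complex I genes are listed, 1 of 8 for complex II, 0 of 9 for complex III, 2 of 27 for complex IV and 0 of 17 for complex V, with assembly factors counted in their complex. For the ribosome, 4 of 49 Mrpl genes and 1 of 29 Mrps genes are listed. For import, 2 of 15 Timm genes and 1 of 10 Tomm genes are listed. None of the 11 coenzyme Q genes, the 4 fusion genes (Opa and Mfn) or the 6 genes for mitochondrial DNA maintenance and transcription is listed. All these genes were sought by symbol, so one listed under an older symbol would be counted as absent. No listed feature lies on the mitochondrial chromosome, which carries 37 annotated genes, and a missing row does not tell an unchanged gene from one that was left out of the authors' comparison.

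The promoters of the listed genes were examined for letters bound by factors known to act on nuclear genes for mitochondria. RefSeq windows of GRCm38.p6, from 250 bases before to 50 bases after the start of transcription, were found for 12 of the 13 genes; none was found for Cox6a2. The letters searched, on both strands, were GCGCANGCG for NRF1, CCGGAAG for ETS factors such as GABPA, AAGATGGC for YY1 and TCAAGGTCA for the estrogen-related receptors. At least one of the first 3 was present at 10 of the 12 genes, including all 5 ribosome genes, against 23.5% of 16517 protein-coding genes. Among all 196 genes that the rule matches and that have a window, listed or not, the share was 60.2%. The NRF1 letters were present at 4 of the 12 genes (25% of the 196 genes and 10% of protein-coding genes), the ETS letters at 5 (34.2% and 13.4%), the YY1 letters at 3 (13.3% and 3.64%) and the receptor letters at none (1.53% and 0.387%). A match of letters is not a bound site. The median GC content of the 12 windows was 58.3%, close to the 57% of protein-coding genes. Their median ratio of observed to expected CpG (C followed by G) was 0.714, against 0.598 for protein-coding genes. The NRF1 and ETS letters contain CpG, and the part of this in the matches was not tested.

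The windows below belong to the genes with the largest differences that have one, and to Mrps18a, Mrpl37 and Cox6a1, which were added after the matches were seen because they hold the YY1 letters or both other kinds. Ndufb8, which was higher in siH19, also holds the YY1 letters, at position 39 after the start, but its window is not shown. Capitals mark the matched letters. In Ndufaf4 and Mrpl39 the NRF1 letters begin at positions -113 and -125 from the start of transcription, and in Cox6a1 at -162 and -117, with ETS letters at -16. In Mrps18a the ETS letters begin at -26 and the YY1 letters at position 12 after the start, and in Mrpl37 the YY1 letters begin at position 27. Tomm34 and Sdhaf1 hold ETS letters only, at -39 and at position 8, and Timm17b holds none of the 4. Tomm34 has 2 annotated starts, and the window of the outer one is shown.
Tomm34 (chr2:164071120-164071419, minus strand): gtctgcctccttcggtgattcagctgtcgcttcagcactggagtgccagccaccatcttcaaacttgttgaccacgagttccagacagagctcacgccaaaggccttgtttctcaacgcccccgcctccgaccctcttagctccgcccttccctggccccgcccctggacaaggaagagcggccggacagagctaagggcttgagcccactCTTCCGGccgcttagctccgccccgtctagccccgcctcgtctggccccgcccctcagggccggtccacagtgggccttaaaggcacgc
Ndufaf4 (chr4:24897833-24898132, plus strand): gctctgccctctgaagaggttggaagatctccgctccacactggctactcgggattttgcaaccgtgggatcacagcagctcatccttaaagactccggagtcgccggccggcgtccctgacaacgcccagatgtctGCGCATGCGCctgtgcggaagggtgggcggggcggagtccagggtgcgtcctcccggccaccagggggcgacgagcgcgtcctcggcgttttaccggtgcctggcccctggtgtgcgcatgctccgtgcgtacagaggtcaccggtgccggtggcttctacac
Timm17b (chrX:7899086-7899385, plus strand): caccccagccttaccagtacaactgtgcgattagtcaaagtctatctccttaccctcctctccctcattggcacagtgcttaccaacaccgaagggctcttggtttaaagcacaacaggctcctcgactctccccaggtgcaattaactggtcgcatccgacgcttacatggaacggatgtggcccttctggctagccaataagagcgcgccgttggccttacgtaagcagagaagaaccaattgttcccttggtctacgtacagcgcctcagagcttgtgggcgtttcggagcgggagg
Sdhaf1 (chr7:30322326-30322625, minus strand): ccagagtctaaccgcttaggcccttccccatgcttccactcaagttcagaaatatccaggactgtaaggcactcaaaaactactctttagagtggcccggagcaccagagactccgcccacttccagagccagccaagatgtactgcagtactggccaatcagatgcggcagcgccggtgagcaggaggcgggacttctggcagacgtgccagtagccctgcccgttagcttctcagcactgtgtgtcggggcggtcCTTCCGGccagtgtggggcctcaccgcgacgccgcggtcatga
Mrpl39 (chr16:84735195-84735494, minus strand): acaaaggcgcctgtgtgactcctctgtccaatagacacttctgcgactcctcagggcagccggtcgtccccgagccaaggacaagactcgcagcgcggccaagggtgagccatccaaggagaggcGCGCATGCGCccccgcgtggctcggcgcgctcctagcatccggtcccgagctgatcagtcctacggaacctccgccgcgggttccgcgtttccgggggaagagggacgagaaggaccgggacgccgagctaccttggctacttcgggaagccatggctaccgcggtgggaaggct
Mrps18a (chr17:46110754-46111053, plus strand): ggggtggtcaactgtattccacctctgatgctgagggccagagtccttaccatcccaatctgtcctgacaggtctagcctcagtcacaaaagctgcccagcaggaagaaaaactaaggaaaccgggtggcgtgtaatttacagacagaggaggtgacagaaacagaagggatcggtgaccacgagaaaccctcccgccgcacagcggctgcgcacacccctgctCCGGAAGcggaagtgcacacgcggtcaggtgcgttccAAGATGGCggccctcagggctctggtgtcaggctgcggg
Mrpl37 (chr4:107066817-107067116, minus strand): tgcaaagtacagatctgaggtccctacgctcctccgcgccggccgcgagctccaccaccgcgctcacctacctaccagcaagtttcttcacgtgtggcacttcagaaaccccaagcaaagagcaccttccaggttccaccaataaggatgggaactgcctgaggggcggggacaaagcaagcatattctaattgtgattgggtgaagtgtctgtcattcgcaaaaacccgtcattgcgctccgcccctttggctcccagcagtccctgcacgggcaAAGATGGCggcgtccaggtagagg
Cox6a1 (chr5:115348909-115349208, minus strand): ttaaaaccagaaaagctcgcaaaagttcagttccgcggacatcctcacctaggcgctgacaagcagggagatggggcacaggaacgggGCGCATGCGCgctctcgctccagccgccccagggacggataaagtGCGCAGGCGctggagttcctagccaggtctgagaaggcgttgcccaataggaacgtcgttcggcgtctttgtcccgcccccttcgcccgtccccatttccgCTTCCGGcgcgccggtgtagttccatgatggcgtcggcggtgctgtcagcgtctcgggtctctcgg
Genes that were higher and genes that were lower in siH19 both carry these letters. The NRF1 letters, for example, are at Ndufaf4, which was higher, and at Mrpl39, Mrpl45 and Cox6a1, which were lower. The inner membrane import genes Timm17b and Timm22 hold none of the 4 in any of their windows.

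Complex IV, cytochrome c oxidase, gave the clearest contrast. Subunit 6A exists in 2 forms, COX6A1 in most tissues and COX6A2 in heart and skeletal muscle. Cox6a2 (chromosome 7, minus strand, 128173946 to 128206366 in mm10) went from a log2 FPKM of 4.72 in siCon to 5.49 in siH19. Its difference of 0.77, or 1.71-fold, was the largest among the 13 genes in absolute size on the deposited scale; centred on the listed features it is 0.32, smaller in size than those of the 7 lower genes. Cox6a1 (chromosome 5, minus strand, 115345654 to 115348955) had the highest level of the 13, 8.35 in siCon, and was 7.98 in siH19, which is 77.4% of the control level. In linear units Cox6a1 stood at 326 FPKM in siCon and 252 FPKM in siH19, and Cox6a2 at 26.4 and 44.9 FPKM. The muscle form thus made up 7.47% of the summed 6A level in siCon and 15.1% in siH19, while the sum itself was 353 FPKM in siCon and 297 FPKM in siH19. Cox6a1 remained the more abundant form, at 12.4 times the Cox6a2 level in siCon and 5.62 times in siH19. FPKM is divided by transcript length, so the 2 genes can be set side by side, but the assembled Cox6a2 feature spans 32421 bp, whereas the annotated gene covers only 128205435 to 128206387. On the same strand the feature also takes in the noncoding 4931431B13Rik and Gm39091, and it lies inside Itgad on the opposite strand; none of these is listed. How much of the Cox6a2 level comes from sequence outside the gene is unknown.

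**Figure D2:**
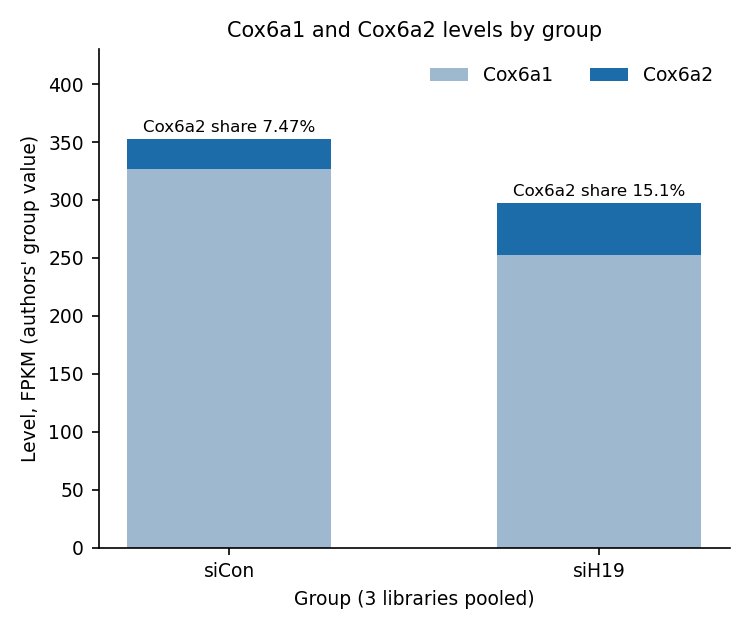
Stacked bars of the Cox6a1 and Cox6a2 levels in FPKM, 1 group value pooled over 3 libraries per bar section, from an axis that starts at 0. The summed level is 353 FPKM in siCon and 297 FPKM in siH19, and the share of Cox6a2 is 7.47% and 15.1%.

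Both listed complex I genes were higher in siH19, though Ndufb8 was no higher than the median of the listed features. Ndufb8, an accessory subunit of the membrane arm (chromosome 19, minus strand, 44550254 to 44555415), went from 7.39 to 7.76, a difference of 0.37 or 1.29-fold. Its feature overlaps Gm20538, a neighbour on the same strand, so that reads of the 2 could be shared. Ndufaf4, an assembly factor that is not part of the finished complex (chromosome 4, plus strand, 24898083 to 24905001), had the lowest level of the 13 in siCon, 2.37, and 2.95 in siH19, which is 149.5% of the control level. Its difference of 0.58 falls just short of the 1.5-fold cut-off of 0.585, by less than the rounding of the deposited levels. The only complex II gene was Sdhaf1, which helps to put iron-sulfur clusters into succinate dehydrogenase (chromosome 7, minus strand, 30321409 to 30322375). It was lower, from 3.03 to 2.59, with 73.7% of the control level left, and its difference of -0.44 is within rounding of the -0.43 of Mrpl39. The feature overlaps E130208F15Rik on the opposite strand. Of the 5 respiratory chain genes, 3 were thus higher and 2 lower, and their summed level was 98.9% of that in siCon, a sum that Cox6a1 and Ndufb8 dominate.

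The 5 listed Mrpl and Mrps genes were all lower in siH19, by similar amounts. Mrpl39 (chromosome 16, minus strand, 84717580 to 84735302) went from a log2 FPKM of 5.09 to 4.66, a difference of -0.43. Mrpl45, whose protein sits at the exit of the peptide tunnel and holds the ribosome to the inner membrane (chromosome 11, plus strand, 97315716 to 97329920), went from 5.03 to 4.62, a difference of -0.41. Mrpl37 (chromosome 4, minus strand, 107055874 to 107066866) went from 5.02 to 4.62, a difference of -0.40. These 3 genes were nearly alike in level as well as in difference. Mrpl34, one of the smallest ribosomal proteins (chromosome 8, plus strand, 71464926 to 71465753), went from 5.20 to 4.84, a difference of -0.36. Mrps18a (chromosome 17, plus strand, 46111004 to 46128908) went from 5.71 to 5.34, a difference of -0.37; its symbol names the small subunit, although structures of the mammalian ribosome place its protein in the large one. The 5 genes lie on 5 chromosomes, and none shares a row with another gene. Together their level was 188 FPKM in siCon and 144 FPKM in siH19, or 76.3% of the control. The narrow range from -0.43 to -0.36 has a floor that the list itself sets, since the smallest absolute difference of any listed feature was 0.31. The other 73 annotated ribosome genes have no row under their annotated symbols, so nothing is known here of their direction.

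**Figure D3:**
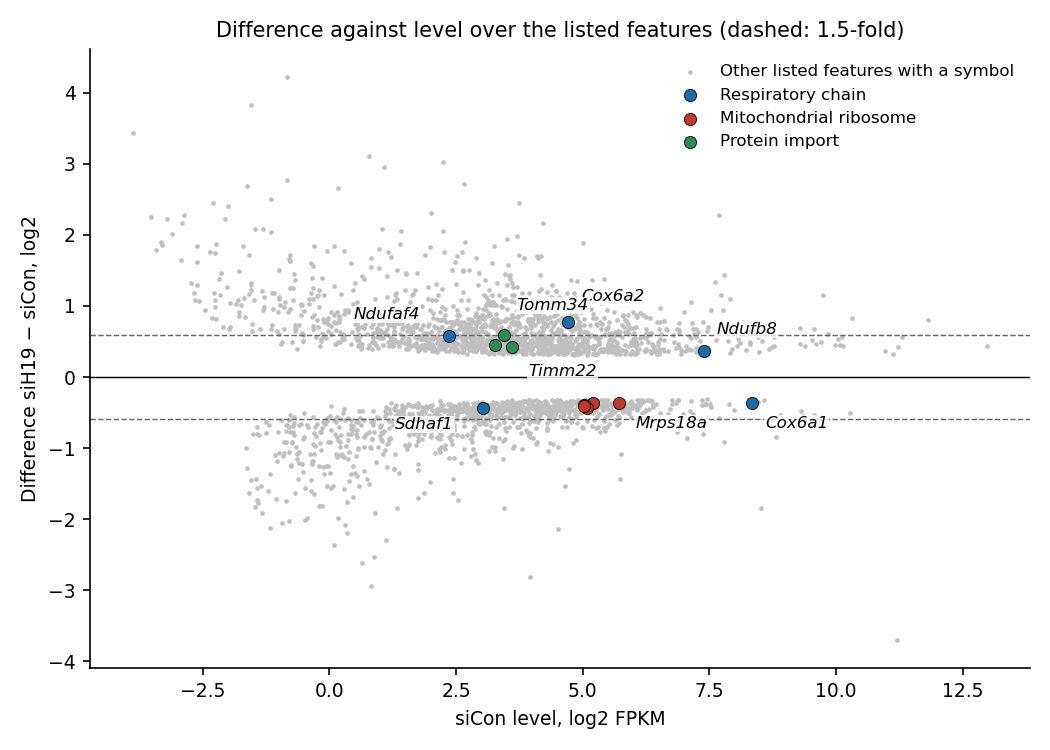
Difference in log2 level (siH19 minus siCon) against the siCon level in log2 FPKM for listed features with a gene symbol, with the mitochondrial genes in colour and dashed lines at 1.5-fold. The empty band around 0 is where features were not listed, and 11 of the 13 mitochondrial genes lie between that band and the dashed lines, the ribosome genes in a tight group from -0.43 to -0.36. On a scale centred on the median of the listed features, Ndufb8 and Timm22 fall below 0.

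All 3 import genes were higher in siH19, with Timm22 turning to -0.03 and Timm17b to 0.00 relative to the median of the listed features. Tomm34 encodes a cytosolic cochaperone that binds HSP70 and HSP90 and hands precursor proteins to the outer membrane, rather than a part of the TOM pore (chromosome 2, minus strand, 164053528 to 164071138). It went from a log2 FPKM of 3.45 to 4.04, a difference of 0.59 or 1.51-fold, past the cut-off by less than the rounding of the deposited levels. Timm17b, a form of TIM17 in the translocase for proteins with a cleavable presequence (chromosome X, plus strand, 7899398 to 7907652), went from 3.27 to 3.72, a difference of 0.45. Timm22, the channel that inserts metabolite carriers into the inner membrane (chromosome 11, plus strand, 76407167 to 76416312), went from 3.60 to 4.02, a difference of 0.42. Their summed level of 32.7 FPKM in siCon was well below that of the ribosome genes, and it was 45.9 FPKM in siH19. Stk4 begins within the Tomm34 feature on the opposite strand, and Ywhab, within 50 kb of it, was also listed as higher, with a difference of 0.48.

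Few of the 13 genes passed 1.5-fold on the deposited scale. A level at least 1.5-fold higher in siH19 was reached by 2 of the 13, Cox6a2 and Tomm34, against 37.4% of all listed features. A level at least 1.5-fold lower was reached by 0 of the 13, against 16.9%. These counts hold on the deposited scale only. Because no listed difference is smaller than 0.31 in absolute size, subtracting the median of 0.45 carries every lower feature past 1.5-fold, so the 7 genes and 37.2% of listed features past it on the centred scale are the ones already lower, and 0 of the 13 genes remain 1.5-fold higher, against 15.9%. As deposited, the median absolute difference was 0.42 on the log2 scale for the 13 genes, 0.62 for all listed features, and 0.50 for the 1674 listed features with a symbol whose siCon level lies between 2.37 and 8.35, as those of the 13 genes do. No test was run on these shares. Other listed features within 50 kb were found beside 5 of the 13 genes, 1 beside each, while 42.2% of all listed features have such a neighbour. All 5 were higher in siH19, by 0.48 to 0.78, as were 62.8% of all listed features. They include Jam2 beside Mrpl39 (4.94 to 5.60), Npepps beside Mrpl45 (4.37 to 5.15) and Lrfn3 beside Sdhaf1 (0.28 to 0.88), next to genes that were themselves lower.

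Markers of muscle differentiation moved in the same libraries. Of 11 myotube genes chosen as markers, 10 are on a listed row, in 9 rows, and all 9 rows were higher in siH19, by 0.44 to 1.43. Among all listed features 62.8% were higher, and 11.1% of all protein-coding genes are listed. The markers were chosen with earlier results of these data known, and the Myh3 row joins Myh1, Myh2, Myh3, Myh4 and Myh8. The 9 rows include Ckm, the muscle creatine kinase (6.91 to 7.67), Atp2a1, the calcium pump of fast muscle (5.93 to 6.62), and Myog, a transcription factor of differentiating muscle (7.79 to 9.22). Their summed level was 6517 FPKM in siCon and 9841 FPKM in siH19, so the labelled cell type was present in both groups, and none was at 0. Relative to the median of the listed features, Tnnt1 and Tnnc2, both at 0.44, would be just below 0. Of the 7 genes for undifferentiated or proliferating myoblasts only Myf5 is listed (3.41 to 3.03), of the 5 fibroblast genes Col1a1 (4.81 to 5.22) and Dpt (-0.38 to -1.47), and of the 3 adipocyte genes none. The part of the myotube markers in the mitochondrial differences was not tested.

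Of 191 other mitochondrial genes written out as a list, 24 are listed, 13 of them higher and 11 lower in siH19, with a median difference of 0.40. These are 12.8% of its 188 annotated genes, against 11.1% of all protein-coding genes, and 54.2% of the 24 were higher, against 62.8% of all listed features. The regulators of mitochondrial biogenesis gave 3. Ppargc1a, the coactivator PGC-1alpha that raises the transcription of many mitochondrial genes, went from a log2 FPKM of 0.21 to -0.71, a 52.9% remainder. Esrrb, an estrogen-related receptor, went from -0.79 to -2.82, below 1 FPKM in both groups, while Pprc1, a relative of PGC-1alpha, went from 2.27 to 2.78. Nrf1, Gabpa, Esrra and Yy1 are not listed. For Ppargc1a and Esrrb the size depends on how low levels are treated, since with 1 FPKM added to each level the differences of -0.92 and -2.03 become -0.42 and -0.47.

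The 4 listed genes of the group for carriers and pores were higher, whereas the carrier Slc25a20, grouped with fatty acid oxidation, was lower (-0.44). Slc25a44 and Slc25a16, carriers outside the list that were chosen after their values were seen, were lower too (-0.40 and -0.37). Other carriers outside the list were not examined. Ucp3, the uncoupling protein of skeletal muscle, had a difference of 1.47 from a level below 1 FPKM (-2.14 to -0.67), which becomes 0.41 with 1 FPKM added, Mcu, the pore of the calcium uniporter, 0.74 (4.90 to 5.64), and Ucp2 0.70 (3.39 to 4.09). Slc25a4, the muscle form of the ADP/ATP carrier and a client of the TIM22 route, had a difference of 0.44 (8.04 to 8.48), which is 0.01 below the median of the listed features. Relative to that median, Cs, citrate synthase, also turned from 0.37 (6.68 to 7.05) to -0.08. Pdk4, which switches off pyruvate dehydrogenase, went from 2.37 to 2.88. Genes of fatty acid oxidation went both ways, with 2 of 6 higher, Hadhb by 0.62 and Acadl by 0.44, and 4 lower, Acadm, Slc25a20, Etfdh and Cpt1a, with differences from -0.51 to -0.36. Acadl was 0.01 below the median of the listed features. The Cpt1a row is shared with Mtl5.

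The 4 listed genes of respiratory chain assembly outside the 13 went both ways. Coa5 (4.76 to 5.31) and Oxa1l (3.87 to 4.29), which serve complex IV and membrane insertion, were higher, Oxa1l only before centring on the listed features. Nubpl (3.72 to 3.02) and Foxred1 (2.88 to 2.39), which serve complex I, were lower, the opposite sign to Ndufaf4 and, before centring only, to Ndufb8. Around the ribosome, the alanyl and tryptophanyl tRNA synthetases of mitochondria, Aars2 (2.98 to 2.43) and Wars2 (1.69 to 1.30), were lower, as the ribosome genes were, but Ptcd3, which belongs to the small subunit (4.70 to 5.14), was higher. It was 0.01 below the median of the listed features on the centred scale. Hspd1, the HSP60 chaperonin of the matrix, was lower (7.14 to 6.80), and Trak1, an adaptor for mitochondrial transport along microtubules, was higher (3.89 to 4.34) by 0.45, which is the median of the listed features. None of the 18 further import and processing genes or the 13 further genes for mitochondrial DNA and transcription is listed.

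**Figure D4:**
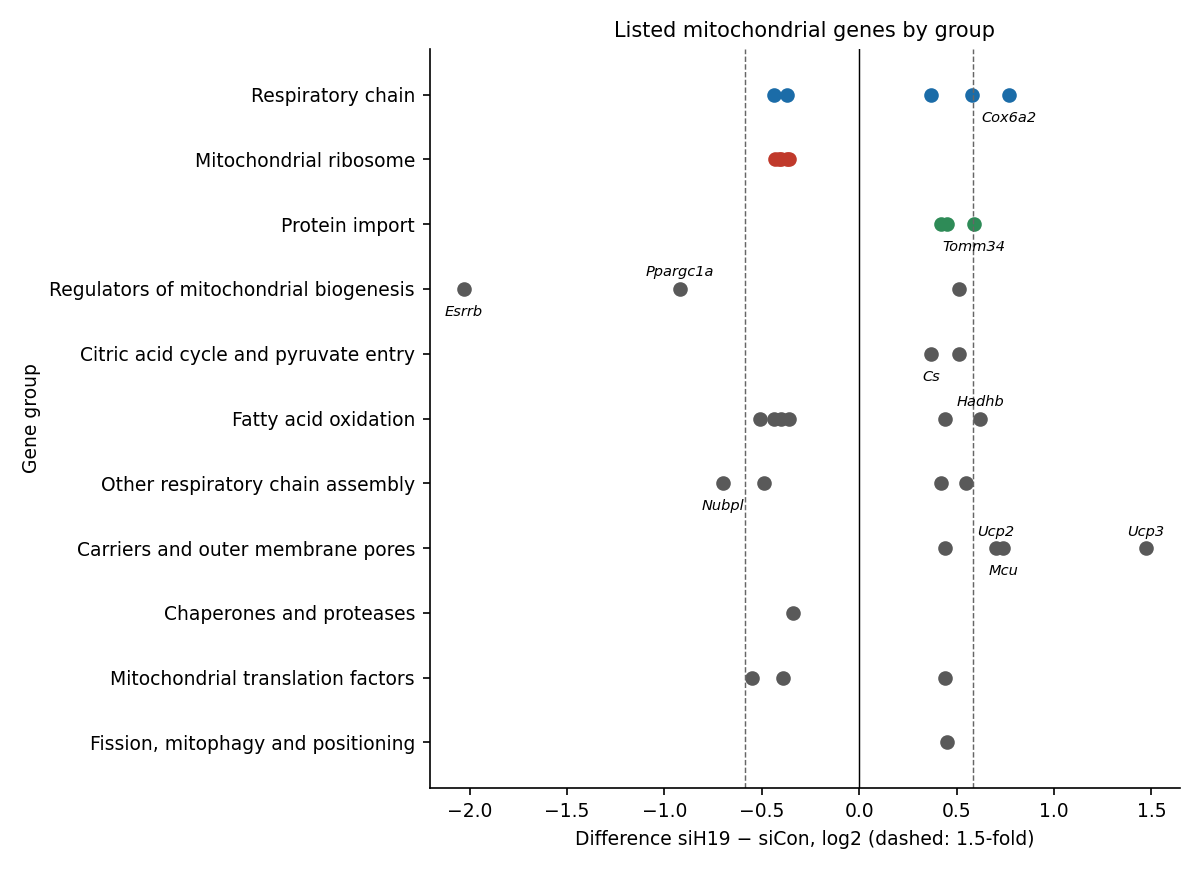
Difference in log2 level (siH19 minus siCon) of each listed mitochondrial gene, one point per gene, by group, with the 13 genes in colour, the 24 others in grey and dashed lines at 1.5-fold. The ribosome group lies wholly below 0, although Ptcd3 of the small subunit, plotted with the translation factors, lies above 0. The import group and the 4 genes grouped as carriers and pores lie above 0, although the carrier Slc25a20, plotted with fatty acid oxidation, lies below 0. On a scale centred on the listed features, Timm22, Slc25a4 and Ptcd3 fall below 0 and Timm17b is at 0. The most negative points are Esrrb and Ppargc1a, and the most positive is Ucp3, on the deposited scale only. With 1 FPKM added, Esrrb is at -0.47 and Ppargc1a at -0.42, against -0.64 for Nubpl. Ucp3 is then at 0.41, against 0.72 for Mcu.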

How the data were processed

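RNA-seq libraries were made from total RNA of siCon and siH19 myotubes (3 each), with a stranded kit that removes rRNA, and read as pairs over 76-bp cycles. The authors aligned reads with TopHat (app version 1.0.0, TopHat2 2.0.7 in the submitters' processing notes) to the mm10 build, and groups were compared with Cuffdiff 2.1.1. The authors deposited log2 FPKM levels, 1 per group over 3 libraries, rounded to 2 decimals, for features marked significant only (3019 of 3019). The deposited fold change, q value and significance columns hold the authors' own comparison and were not used for any result. Differences are siH19 minus siCon log2 levels, recomputed here. Depth, and hence precision, is unknown, and no interval, SD or test is given. The gene rule, the lists and the named genes were chosen with earlier results of these data known. Named by rule were all 13 genes, genes of the list of 191 past 1.5-fold or fixed by name, and H19, and the other listed genes of that list were added so that all 24 are shown. Feature starts count from 0 in the table and were raised by 1 for printing (3 of 13 then equal the GENCODE M21 start). Symbols were matched to GENCODE M21, so genes listed under an older symbol could be missed, and promoters are RefSeq windows of GRCm38.p6. Alternatives were a lower cut-off, one of 2, a minimum level, rows with 1 symbol, centring and 1 FPKM added. Python 3.11.15, scipy 1.17.1 and matplotlib 3.10.9 were used, and counting and motif search were tested on simulated data.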

Additional observations from a re-analysis of the deposited data

How the results depend on the processing

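With the lower of the alternative cut-offs in place of 1.5-fold, 6 genes were higher and 7 lower, and at 2-fold 0 were higher. With 1 FPKM added to each level, 1 gene was at least 1.5-fold higher. Centring on the median of the listed features (0.45) left 0 genes at least 1.5-fold higher and 7 at least 1.5-fold lower and gave a median of -0.81; the 7 are the genes already lower, which the shift carries past 1.5-fold by construction. On that scale 3 of the 13 were higher, 9 lower and 1 at 0. It turned Ndufb8 and Cs to -0.08 each and Timm22 to -0.03. That shift follows from a median over listed features only, which need not be that of all genes. A minimum log2 FPKM of 0 and rows with 1 symbol, applied to the 13 genes only, removed none of them. Among the 24 others they would leave out Esrrb and Ucp3, and Cpt1a. No paired analysis was possible because the deposited levels are pooled over the replicates of a group, and for the same reason no replicate could be left out.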

Other observations

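Other listed genes with mitochondrial products, chosen after their values were seen, include both members of an electron transfer pair. Fdx1, a ferredoxin of the matrix that passes electrons to iron-sulfur cluster and steroid synthesis, went from a log2 FPKM of 3.74 in siCon to 3.33 in siH19, and Fdxr, the reductase that supplies it, from 2.89 to 2.30. Chchd6, a part of the complex that shapes cristae, went from 3.46 to 2.59. Of the 2 mitochondrial malic enzymes, one was lower and one higher, Me2 from 4.82 to 4.36 and Me3, at a low level, from 0.09 to 0.87. Bdh1, which interconverts ketone bodies, was at -1.08 and -2.18, Bckdha, of branched-chain amino acid breakdown, at 3.91 and 4.34, and Bax, which permeabilizes the outer membrane in apoptosis, at 6.14 and 5.58. Letmd1, Slc25a44 and Slc25a16 were lower as well, with differences of -0.75, -0.40 and -0.37. Of these 11 genes 2 were higher and 9 lower, whereas 62.8% of all listed features were higher, but the genes were picked by hand. Bckdha turns to -0.02 when centred on the listed features. No test was run on these pooled values, and genes of the same kind that are not listed were not analysed here.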
